A study of Mus musculus with 22 samples.

Results

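Of the 599 endogenous probes of a mouse miRNA panel, 3 are described here: mmu-miR-338-3p, mmu-miR-204 and mmu-miR-872, written below without the species prefix. They were chosen by their fold changes and p-values between diets, as the single miRNAs that differed most clearly once the lanes dominated by 1 probe, miR-720, had been left out. The diet differences of these 3 miRNAs are therefore given as a description with no test, and they support nothing by themselves. The members were matched by probe name, and all 3 were found in each of 22 lanes.

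The study profiled the left gland number 4 of female C57BL/6 mice with no genetic alteration. The mice were 4 to 5 weeks old when they were assigned to a diet, and they ate it for 3 weeks. The diets were 10% flaxseed (6 lanes), 3.67% flaxseed oil (5 lanes, called oil below), 0.15% SDG, the lignan secoisolariciresinol diglucoside of flaxseed (6 lanes), and the unsupplemented basal AIN-93G diet (5 lanes). Each lane held total RNA of 1 gland, which mixes epithelium, fat, vessels, immune cells and any attached muscle, so that fewer cells of a type and less RNA per cell cannot be told apart. Counting was done on a NanoString nCounter, which reads a fluorescent barcode per captured miRNA molecule without amplification.

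Lane totals ranged from 260551 to 762146 endogenous counts. The single probe miR-720 took 65.4% of the counts in basal 1, 53.7% in flaxseed 3 and 47.4% in SDG 5, against 2.37% to 8.61% in the other 19 lanes. The main results are therefore given for 22 lanes and for the 19 lanes without these. A lane's background threshold was set 2 SD over the mean of its 8 negative control probes, which gave thresholds of 17.5 to 66.8 counts. The epithelial markers (the miR-200 family and miR-205) were all above background in some lanes, at a summed 2485 to 26846 CPM. The replicate numbers of the 6 SDG mice differed between the lane files and the deposited log2 table, with no effect on the diet assigned.

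A miRNA guides the silencing complex to messenger RNAs, mainly by pairing of its seed, a short stretch near its 5′ end, with sites in their 3′ ends. miR-338-3p lies within the neuronal kinase gene Aatk and is best known from work on oligodendrocyte and neuronal differentiation. miR-204 lies within Trpm3, a cation channel gene. It is best known from pigment epithelium of the eye and from mesenchymal progenitors, where it targets Runx2, a regulator of bone formation, and favours the fat cell fate. miR-872 lies within the span of Ift74, a gene of ciliary transport, and is less studied.

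The mature sequences are shown because the panel counts miRNAs by sequence, and because close relatives bear on what a probe can detect. They are RefSeq sequences of build GRCm38.p6, written 5′ to 3′, with the seed (bases 2 to 8) in capitals. RefSeq held all 3 members. The panel names of miR-204 and miR-872 give no arm and were matched to the 5p arm.
miR-338-3p: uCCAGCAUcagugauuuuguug
miR-204: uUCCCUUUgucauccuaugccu
miR-872: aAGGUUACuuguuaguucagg
miR-338-5p: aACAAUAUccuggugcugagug
miR-211: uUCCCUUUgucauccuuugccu

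The 3 members had 3 distinct seeds and lay on separate chromosomes: miR-338-3p at chr11:120014781-120014802 on the minus strand, miR-204 at chr19:22750610-22750631 on the plus strand and miR-872 at chr4:94665167-94665187 on the plus strand. Neither a seed nor a cluster joined them. miR-211, at chr7:64205831-64205852 on the plus strand, carries the seed of miR-204 and matched it at 21 of 22 bases, with the substitution A17U counted from the 5′ end of miR-204. miR-338-5p is the other arm of the miR-338 hairpin. That hairpin is shown to place both arms, with miR-338-3p in capitals.
Mir338 hairpin: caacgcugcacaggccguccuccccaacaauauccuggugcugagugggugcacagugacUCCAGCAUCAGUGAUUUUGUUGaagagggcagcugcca

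miR-338-3p was the most counted of the 3. Its raw counts were 656, 930, 132, 962, 1146 and 899 in flaxseed lanes 1 to 6, against 77, 767, 714, 1188 and 890 in basal lanes 1, 2, 3, 4 and 6. Oil lanes 1, 2, 3, 4 and 6 had 310, 734, 380, 317 and 476 counts, and SDG lanes 1 to 6 had 242, 479, 524, 715, 532 and 492. It was above background in 22 of 22 lanes. The lowest counts of all belonged to 2 of the 3 miR-720 lanes, flaxseed 3 and basal 1. SDG 5, the other lane with much miR-720, lay among the remaining SDG lanes.

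To compare lanes, counts were scaled by TMM, a trimmed mean of ratios between lanes, and given as log2 CPM (scaled counts, with a prior count of 1). On that scale miR-338-3p had 10.60, 11.23, 9.19, 10.92, 10.51 and 11.04 in flaxseed lanes and 9.18, 9.80, 9.17, 8.78 and 10.06 in oil lanes. SDG lanes had 9.60, 10.22, 10.34, 10.68, 10.36 and 10.38, and basal lanes had 9.01, 10.88, 10.76, 11.10 and 10.02. Over the 19 lanes its mean level was 10.86 ± 0.30 (SD, n = 5) in flaxseed, 9.40 ± 0.52 (n = 5) in oil, 10.24 ± 0.40 (n = 5) in SDG and 10.69 ± 0.46 (n = 4) in basal lanes. By level the order was flaxseed, basal, SDG and oil: flaxseed and basal differed by less than their SD, the SDG and basal ranges overlapped, and oil lay lowest. All 5 flaxseed lanes stood above all 5 oil lanes, while 1 basal lane (10.02) lay just below the highest oil lane (10.06) and 4 SDG lanes stood above it.

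The fitted log2 fold change of miR-338-3p was -1.06 ± 0.36 (SE) for oil over basal in 22 lanes and -1.26 ± 0.25 in 19 lanes. For flaxseed over oil it was 1.24 ± 0.35 in 22 lanes and 1.40 ± 0.24 in 19. It was thus lowest with the oil in both sets, by a factor of 2.40 below basal over 19 lanes. For flaxseed over basal the values were 0.18 ± 0.35 and 0.14 ± 0.25, each smaller than its SE. For SDG over basal they were -0.23 ± 0.34 and -0.48 ± 0.25, for flaxseed over SDG 0.41 ± 0.33 and 0.62 ± 0.24, and for oil over SDG -0.83 ± 0.35 and -0.78 ± 0.24.

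miR-204 had 209, 223, 23, 382, 611 and 228 raw counts in flaxseed lanes, against 83, 189, 413, 278 and 438 in basal lanes. Oil lanes had 156, 313, 134, 218 and 192, and SDG lanes had 110, 137, 158, 216, 220 and 177. It was above background in 22 of 22 lanes, although only 1.31 times the threshold in flaxseed 3. On the log2 CPM scale it had 8.95, 9.17, 6.69, 9.59, 9.60 and 9.06 in flaxseed lanes and 8.19, 8.57, 7.67, 8.25 and 8.76 in oil lanes. SDG lanes had 8.47, 8.42, 8.61, 8.96, 9.09 and 8.91, and basal lanes had 9.12, 8.86, 9.97, 9.0 and 9.0. Every oil lane lay below every basal lane, with or without basal 1, as did 0.787% of the 254 probes tested in 22 lanes. Flaxseed 3 was the lowest lane of the study, and basal 3 stood above the other basal lanes.

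Over 19 lanes miR-204 averaged 9.28 ± 0.30 (SD, n = 5) in flaxseed, 8.29 ± 0.42 (n = 5) in oil, 8.67 ± 0.25 (n = 5) in SDG and 9.21 ± 0.51 (n = 4) in basal lanes. By level this is the order of miR-338-3p, with flaxseed and basal again closer than their SD, and SDG and oil closer than the SD of oil. The log2 fold change for oil over basal was -0.93 ± 0.35 (SE) in 22 lanes and -0.95 ± 0.24 in 19. For flaxseed over oil it was 0.76 ± 0.34 and 0.97 ± 0.23. For SDG over basal it was -0.49 ± 0.33 and -0.62 ± 0.24, and for flaxseed over basal -0.16 ± 0.33 and 0.02 ± 0.24. Against SDG, flaxseed stood at 0.33 ± 0.32 and 0.64 ± 0.23 and oil at -0.44 ± 0.34 and -0.33 ± 0.23. Leaving out basal 3 alone brought oil over basal to -0.67, the smallest size among the fits that left out 1 of the 22 lanes.

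miR-872 was the least counted and the nearest to background. Its raw counts were 102, 76, 105, 102, 175 and 87 in flaxseed lanes, against 10, 70, 93, 101 and 133 in basal lanes. Oil lanes had 81, 139, 88, 125 and 74, and SDG lanes had 68, 104, 88, 101, 87 and 96. The 10 counts of basal 1 were below its background threshold of 22.4, and the other 21 lanes were above theirs. The raw counts of all 4 diets overlapped, with means of 108 in flaxseed, 101 in oil, 90.7 in SDG and 81.4 in basal lanes.

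The diets separated for miR-872 only after scaling. Its log2 CPM were 7.93, 7.63, 8.86, 7.70, 7.81 and 7.68 in flaxseed lanes and 7.26, 7.41, 7.07, 7.45 and 7.39 in oil lanes. SDG lanes had 7.78, 8.03, 7.78, 7.87, 7.76 and 8.03, and basal lanes had 6.11, 7.44, 7.83, 7.55 and 7.30. All flaxseed and all SDG lanes lay above all oil lanes, in 22 and in 19 lanes. In 22 lanes 2.36% of probes were so placed for flaxseed over oil, and 0.787% for oil under SDG. Over 19 lanes the means were 7.75 ± 0.12 (SD, n = 5) in flaxseed, 7.32 ± 0.15 (n = 5) in oil, 7.90 ± 0.13 (n = 5) in SDG and 7.53 ± 0.22 (n = 4) in basal lanes. By level the order was SDG, flaxseed, basal and oil. Here SDG stood with flaxseed, not between basal and oil as for the other 2 miRNAs, and the ranges of neighbours in that order overlapped.

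Counting error alone at the median of 96 counts gives an SD of 0.147 on the log2 scale, close to the SDs of 0.119 to 0.155 of miR-872 within flaxseed, oil and SDG lanes. The same figure was 0.054 for miR-338-3p at 714 counts and 0.098 for miR-204 at 216 counts, against SDs of 0.248 to 0.520 within diets. For the other 2 miRNAs the spread between lanes of a diet thus exceeded counting error, and for miR-872 it did so in basal lanes, with an SD of 0.225. What else adds to the spread was not tested.

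The log2 fold change of miR-872 for oil over SDG was -0.56 ± 0.24 (SE) in 22 lanes and -0.55 ± 0.13 in 19. For flaxseed over oil it was 0.68 ± 0.24 and 0.42 ± 0.12, and for SDG over basal 0.51 ± 0.25 and 0.35 ± 0.13. For flaxseed over SDG it was 0.12 ± 0.23 and -0.13 ± 0.13, opposite in sign and about as large as the SE or smaller. Against basal the oil lanes were at -0.05 ± 0.25 and -0.21 ± 0.13, both small beside the values of miR-338-3p and miR-204. The flaxseed over basal value of 0.63 ± 0.25 in 22 lanes was 0.21 ± 0.13 without the miR-720 lanes, which include the highest lane of all (flaxseed 3, 8.86) and the lowest (basal 1, 6.11).

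**Figure D1:**
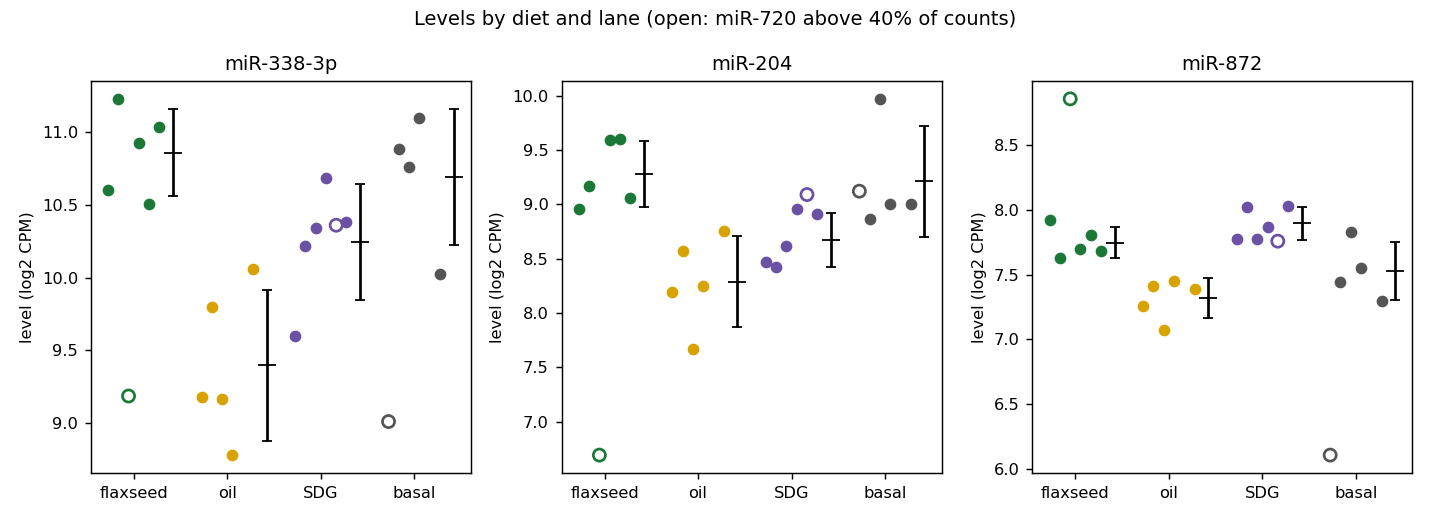
Level of miR-338-3p, miR-204 and miR-872 (log2 CPM) in each lane by diet; open circles are the 3 lanes with miR-720 above 40% of the counts, and the bars give mean and SD of the filled circles. The mean of the filled oil lanes is the lowest for all 3 miRNAs (9.40, 8.29 and 7.32), and the open circle of flaxseed 3 lies apart from the other flaxseed lanes in each panel.

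Against the whole panel, the counts of called probes were as follows. Fitted with edgeR's quasi-likelihood test over 254 probes and 22 lanes, 0 probes (0.0%) had an adjusted p under 0.05 in any of the 6 comparisons, the members included. At an unadjusted p under 0.05 there were 22 probes for flaxseed over basal, 41 for oil over basal, 13 for SDG over basal, 60 for flaxseed over oil, 13 for flaxseed over SDG and 19 for oil over SDG. DESeq2 on the same lanes called 30 probes (11.8%) for flaxseed over oil and 6 (2.36%) for oil over basal, and limma-voom called 0 in each comparison. Among the calls of DESeq2 for flaxseed over oil were miR-338-3p and miR-872. The members were chosen on the 19 lanes, where 242 probes were tested.

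In those 19 lanes 31 probes (12.8%) were called for flaxseed over oil, of which 17 (7.02%) were higher in flaxseed, all 3 members among them, and 1 probe (0.413%), lower in oil, for oil over basal, which was miR-338-3p. The other 4 comparisons had 0 calls (0.0%). The groups did not overlap, with flaxseed higher than oil, for 13 probes (5.37%), the 3 members included. With oil lower than basal they did not overlap for 3 probes (1.24%), among which miR-204, and with oil lower than SDG for 3 probes (1.24%), among which miR-872. With the 254 probes kept in the 19 lanes miR-872 lost its call for flaxseed over oil. With the lymphocyte covariate described below miR-204 and miR-872 lost that call, and miR-338-3p lost the one for oil over basal, where 0 probes were called. For oil over SDG the first of these fits called 1 probe, miR-872, and the second 8, miR-338-3p and miR-872 among them. Since these contrasts chose the members, nothing is read from these counts. Ranked by p over any difference between the diets, miR-338-3p came at rank 1, miR-204 at 4 and miR-872 at 8. The ranks between and just after them were held by miR-133a (2), miR-500 (3), miR-1 (5), miR-410 (6), miR-223 (7) and miR-30b (9), of which miR-133a and miR-1 are muscle miRNAs and miR-223 is a myeloid miRNA. Over 22 lanes the members came at ranks 15, 45 and 23 of 254.

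**Figure D2:**
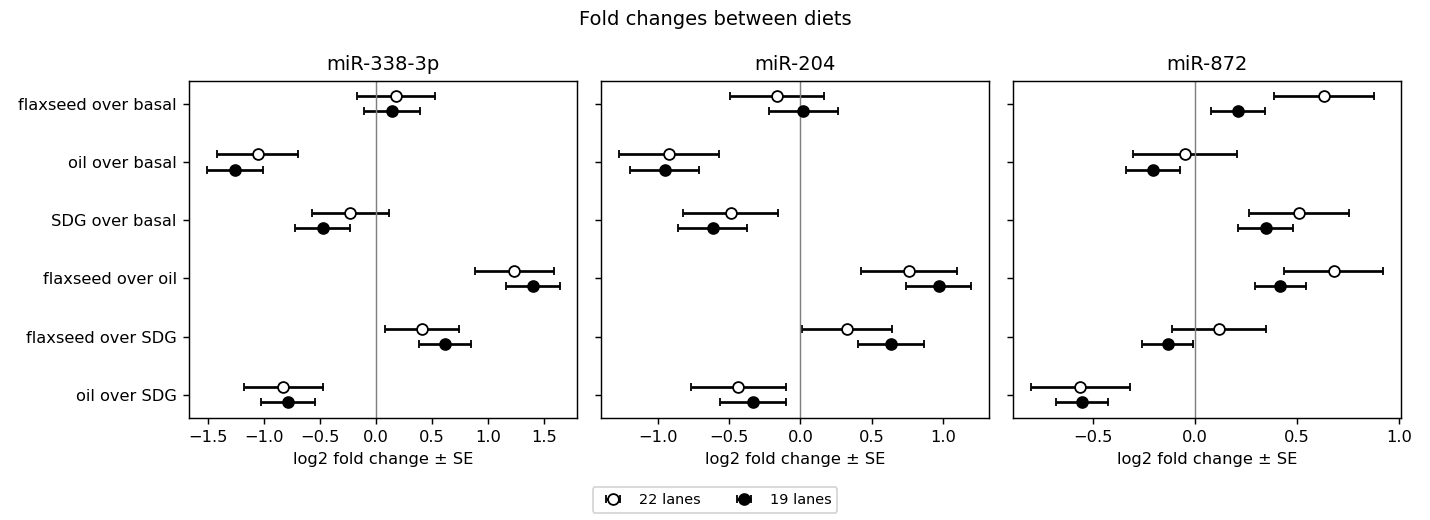
Log2 fold change with SE of each miRNA in the 6 comparisons of diets, from the fit of 22 lanes (open) and of 19 lanes (filled). Oil over basal is -1.06 and -1.26 for miR-338-3p and -0.93 and -0.95 for miR-204, whereas miR-872 is set apart by oil over SDG, -0.56 and -0.55, and by flaxseed over oil, 0.68 and 0.42.

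The choice of scaling bears on all of these values. With scaling by the 4 housekeeping mRNAs the median log2 fold change of all tested probes was 1.15 for flaxseed over oil and 0.30 for oil over basal, where TMM gave 0.08 and -0.03. Relative to that median miR-338-3p still had 0.56 for flaxseed over oil and -1.17 for oil over basal, while miR-204 had -0.14 and -0.92. The housekeeping mRNAs had a geometric mean of 135 counts in flaxseed 3, against 1493 to 4407 in the other flaxseed lanes. That low mean raises every value of flaxseed 3 on this scale, and with it the flaxseed values. How much of the shift rests on this lane was not tested. With the positive controls as the scale, relative to a median of -0.27 for flaxseed over oil, miR-338-3p had 1.27, miR-204 had 0.89 and miR-872 had 0.49.

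The lanes with high lymphocyte miR-150 had the lowest miR-338-3p and miR-204 of their diets. miR-872 showed no such order, with 7.45 in oil 4 and 8.03 in SDG 2. miR-150, a miRNA of mature lymphocytes, had 14.03 to 15.26 log2 CPM in 5 lanes (oil 1, 3 and 4 and SDG 1 and 2) and 11.09 to 12.25 in the other 17. The summed CPM of the 4 lymphocyte markers ranged from 7634 to 115653 in oil, 8833 to 109851 in SDG, 9011 to 33191 in flaxseed and 7401 to 9848 in basal lanes. In the 3 such oil lanes miR-338-3p was at 9.18, 9.17 and 8.78, against 9.80 and 10.06 in oil 2 and oil 6. SDG 1 and SDG 2 had the lowest miR-338-3p and miR-204 of the SDG lanes.

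The oil lanes with low miR-150, oil 2 (9.80) and oil 6 (10.06), had miR-338-3p below the 10.51 to 11.23 of the flaxseed lanes other than flaxseed 3. Oil 6 fell within the 10.02 to 11.10 of the basal lanes other than basal 1. A fit that included the averaged level of both leading lymphocyte miRNAs (miR-142-3p with miR-150) gave miR-338-3p -0.71 for oil over basal and 0.93 for flaxseed over oil in 22 lanes, and -0.97 and 1.13 in 19 lanes. miR-204 had -0.52 and 0.41 in 22 lanes, and -0.71 and 0.75 in 19. miR-872 had 0.76 for flaxseed over oil and -0.60 for oil over SDG in 22 lanes, and 0.43 and -0.55 in 19. The covariate thus brought the values of miR-338-3p and miR-204 toward 0 and left those of miR-872 about as large. High miR-150 occurred only in oil and SDG lanes, so the part of the covariate and that of the diet cannot be told apart. In 22 lanes the covariate also varied through miR-142-3p, which had 14.75 in flaxseed 3, against 12.14 to 12.54 in the other flaxseed lanes, and 10.44 in basal 1.

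**Figure D3:**
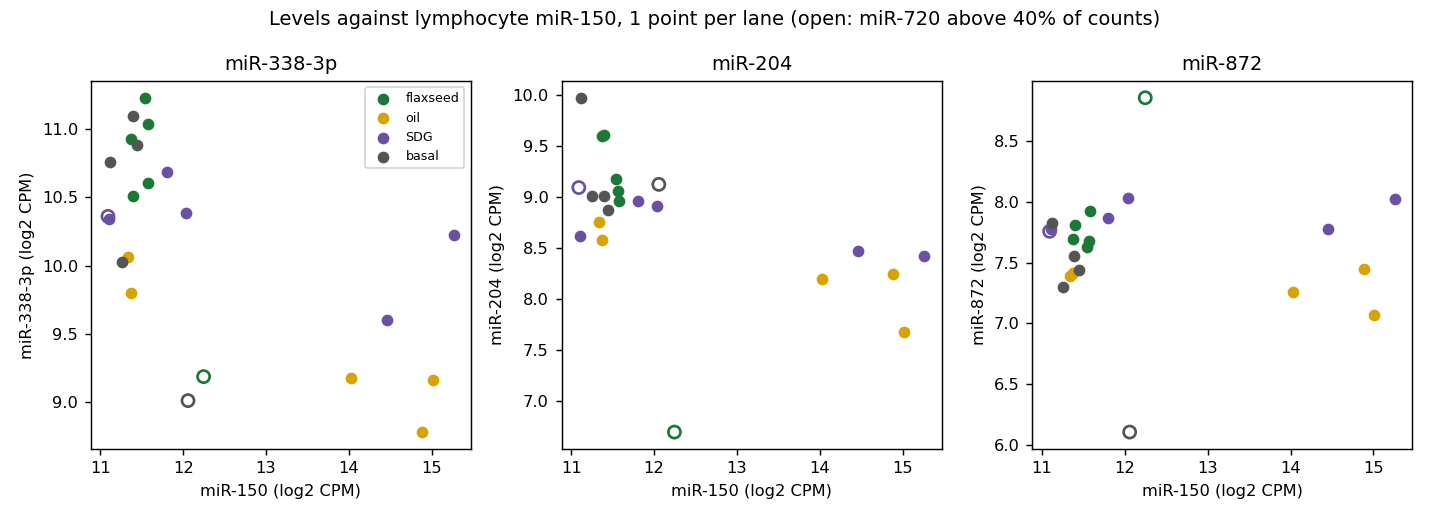
Level of each miRNA against miR-150 (both log2 CPM), 1 point per lane, coloured by diet, with the 3 lanes of high miR-720 open. The 3 oil and 2 SDG lanes at the right stand apart at 14.03 to 15.26 of miR-150, and these oil lanes hold the lowest miR-338-3p among the filled points.

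Muscle miRNAs differed between flaxseed and oil in 19 lanes, but not past the threshold in 22. In 19 lanes 2 of 5 striated muscle markers were higher in flaxseed, as were 7.02% of all probes: miR-133a by 3.69 ± 1.16 (SE, edgeR adjusted p = 0.0457) and miR-1 by 4.44 ± 1.43 (adjusted p = 0.0484) on the log2 scale. In 22 lanes neither passed (edgeR adjusted p = 0.127 for miR-1). Over 22 lanes the summed CPM of the 5 muscle markers ranged from 6476 to 58883 in flaxseed, 403 to 4048 in oil, 496 to 62683 in SDG and 471 to 190021 in basal lanes. Over 19 lanes the highest SDG value was 6273, and the other ranges were unchanged. Of the lymphocyte markers 2 of 4 were lower in flaxseed than in oil, with log2 fold changes of -2.80 for miR-142-3p and -2.61 for miR-150 (edgeR adjusted p = 0.0415 each), as were 5.79% of all probes in 19 lanes. In 22 lanes 0 of 4 were called, and the edgeR adjusted p of miR-150 was 0.0806. For oil over basal no muscle or lymphocyte marker passed. In 19 lanes miR-133a was at -4.96 (edgeR adjusted p = 0.0589) and miR-1 at -5.72 (adjusted p = 0.0659), with 1 of 5 muscle markers above 0. There miR-150 was at 2.79 (edgeR adjusted p = 0.0836), with 3 of 4 lymphocyte markers above 0. The part of attached muscle in the diet differences was not tested.

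Of the other markers, 0 of 6 epithelial, 0 of 2 endothelial and 0 of 3 red cell miRNAs were called in any comparison, with 22 or 19 lanes. The same held for the 5 tested of 8 neural and myelin miRNAs, which bears on the neural setting in which miR-338-3p is best known. The summed level of the neural and myelin list over 22 lanes was 879 to 1976 CPM in flaxseed, 917 to 1022 in oil, 972 to 1175 in SDG and 839 to 1389 in basal lanes. Over 19 lanes the highest values were 1165 in flaxseed and 1129 in basal lanes, with oil and SDG unchanged. Every marker of these lists was above background in at least 1 lane.

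Of 12 miRNAs tied to fat cell formation or fat tissue, the setting of miR-204, 0 were called in any comparison of 22 or 19 lanes. In 19 lanes their median log2 fold change for flaxseed over oil was 0.11, with 9 of 12 above 0, beside 0.04 over all 242 probes. miR-378, which is encoded in Ppargc1b and linked to fat metabolism, had the smallest p among them, with 0.45 ± 0.19 (SE, edgeR adjusted p = 0.104). Of 12 miRNAs tied to bone and mesenchymal fate 11 were tested in 19 lanes, and the only call was miR-133a, named above among the muscle miRNAs. Of 8 miRNAs of oligodendrocyte and neural differentiation 5 were tested and 0 were called. miR-137, a neuronal miRNA, was at 0.46 ± 0.18 for flaxseed over oil (edgeR adjusted p = 0.0765) and -0.61 ± 0.18 for oil over basal (adjusted p = 0.0836) in 19 lanes.

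The 2 closest relatives on the panel were not part of the choice. miR-338-5p, processed from the same hairpin as miR-338-3p, was far less counted, with 27 to 87 counts, and above background in 16 of 22 lanes. Its 44 to 62 counts in flaxseed, 44 to 87 in oil, 27 to 55 in SDG and 34 to 68 in basal lanes lay close to the thresholds. No comparison passed in the edgeR fit: oil over basal was -0.26 ± 0.32 (SE, adjusted p = 0.739) and flaxseed over oil 0.31 ± 0.30 (adjusted p = 0.553) in 22 lanes. In 19 lanes the values were 0.03 ± 0.22 and -0.03 ± 0.20. These stand beside -1.26 and 1.40 for miR-338-3p in the same lanes, and the difference between the arms was not tested. Mean raw counts of miR-338-5p in 19 lanes were 51.2 in flaxseed, 68.0 in oil, 41.0 in SDG and 55.5 in basal lanes, close to the thresholds.

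miR-211, the seed partner of miR-204, was above background in 5 lanes, with 21 counts in flaxseed 3, 44 in oil 1, 90 in oil 3, 82 in oil 4 and 58 in SDG 2. In SDG 1 it had 26 counts, below the threshold, and in each of the other 16 lanes 1 to 12 counts. Apart from flaxseed 3, the lanes with miR-211 above background are lanes with high miR-150. It was tested only through those lanes: oil over basal was 2.02 ± 1.02 on the log2 scale (SE, edgeR adjusted p = 0.312). miR-211 was below miR-204 in each of the 5 lanes, by the least in flaxseed 3, with 21 against 23 counts. Whether either probe detects the other miRNA was not tested.

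**Figure D4:**
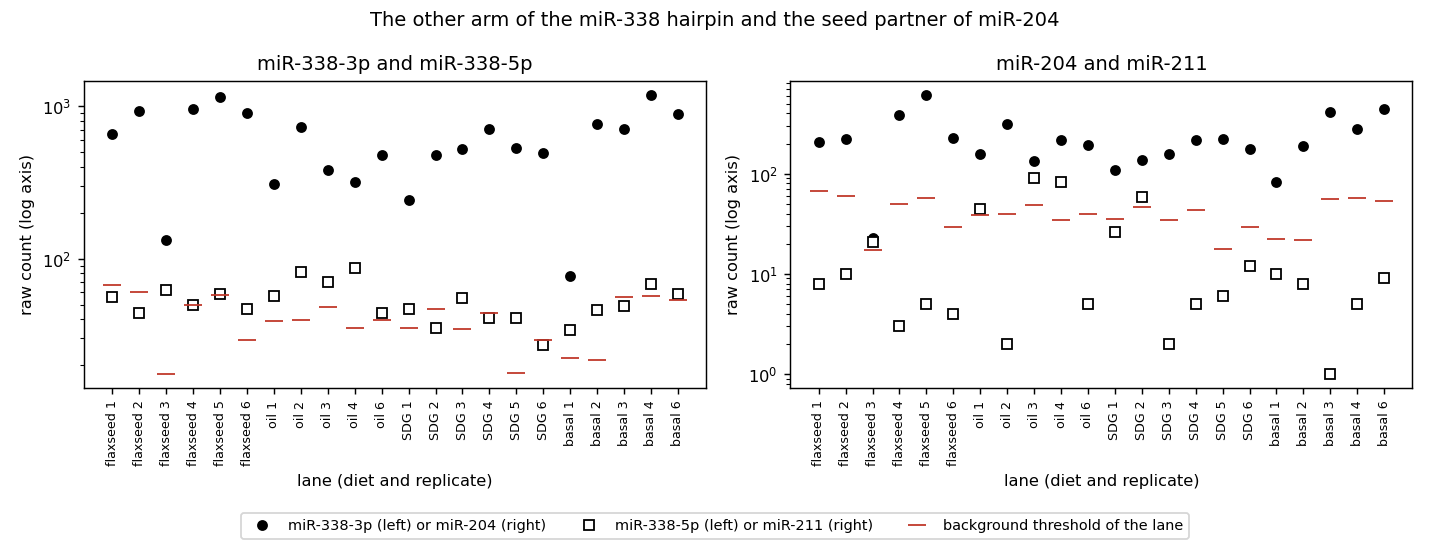
Raw counts (log axis) of miR-338-3p with miR-338-5p, and of miR-204 with miR-211, in each of 22 lanes, with the background threshold of the lane as a red line. miR-338-5p lies near the threshold in most lanes, and miR-211 exceeds it in 5 lanes, among them oil 1, 3 and 4.

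The probes whose levels were most like those of each member are given as a description over lanes that share scaling, diet and depth. For miR-338-3p they were miR-152 (Pearson r = 0.81 over 22 lanes and 0.83 over 19), miR-99a (0.79 and 0.78) and miR-335-5p (0.78 and 0.73). For miR-204 they were miR-434-3p (0.83 and 0.82), miR-125b-5p (0.80 and 0.67) and miR-125b-3p (0.79 and 0.67), the last pair being the arms of 1 hairpin family. For miR-872 they were miR-27a (0.89 and 0.63), let-7i (0.86 and 0.52) and miR-29a (0.83 and 0.24). The likeness of miR-872 to its partners was thus lower without the 3 miR-720 lanes, and that of miR-338-3p was much the same.

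Within diets no pair of members was related past the threshold with TMM scaling, which differed with positive controls as the scale (given at the end). After the mean of its diet was taken from each of the 19 lanes, miR-338-3p and miR-204 had Pearson r = 0.36 (Spearman rho = 0.22), and miR-338-3p and miR-872 had r = 0.18 (rho = 0.11). For miR-204 and miR-872 r was 0.58 (rho = 0.42, two-sided permutation p = 0.0375 for r and 0.109 for rho), but 0.05 without the 2 farthest lanes, on which it therefore rests. With the miR-720 lanes included r was 0.61 for miR-338-3p and miR-204, 0.11 for miR-338-3p and miR-872, and -0.38 for miR-204 and miR-872, the last opposite in sign (adjusted permutation p of 0.154, 0.818 and 0.325). Over the 24 relations computed in the 19 lanes with TMM, none had an adjusted permutation p under 0.05 by Pearson's r, the smallest being 0.183.

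The relation with that smallest value joined miR-338-3p with miR-126-3p, a miRNA of endothelial cells. Its r was 0.61 (permutation p = 0.00764) and its rho 0.71 (permutation p = 0.00101, adjusted p = 0.0242). Without the 2 lanes farthest from the median of miR-126-3p r was 0.46 and rho 0.71. The call was lost with the total count without miR-720 as the scale (rho = 0.60, adjusted permutation p = 0.15) and with all 22 lanes (rho = 0.42, adjusted p = 0.256). With muscle miR-133a the r of miR-338-3p, miR-204 and miR-872 was 0.41, 0.43 and 0.40, with adjusted permutation p of 0.436, 0.439 and 0.476. With miR-150 it was 0.23, -0.19 and 0.17 over the 14 lanes of low miR-150 among the 19 (adjusted permutation p of 0.551, 0.614 and 0.688), since the lanes with high miR-150 form a separate cluster too small for a correlation. The value for miR-204 depended on SDG 4 and SDG 6, the 2 lanes farthest from the median of miR-150. Without them r was -0.92 (adjusted permutation p = 0.0122) and rho -0.90 (adjusted p = 0.0134) over 12 lanes, higher miR-150 going with lower miR-204. SDG 3 was then the only SDG lane, with a deviation of 0 by construction, and oil 2 and oil 6 the only oil lanes. The value thus rests mostly on flaxseed and basal lanes, where miR-150 deviated by only -0.19 to 0.14 from the mean of its diet.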

How the data were processed

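Per the series' design text, the deposited lane files hold raw NanoString counts per probe. All values were whole numbers, and the counting software is not given in the sources used here. A deposited table of log2 values for 238 miRNAs, scaled by the authors by a rule not given in the sources used here, served as an alternative. The 2 lanes that the authors excluded (basal 5 and oil 5) were not analysed here. Library sizes were summed over the tested probes only, out of 599 endogenous probes, 33 of them viral. The alternatives with the total count and with no filter summed all 599.

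A probe was tested if it exceeded background in at least 5 lanes (254 probes, or 242 without the miR-720 lanes). All lanes entered 1 edgeR quasi-likelihood fit (edgeR 4.0.16, R 4.3.3) with diet as the factor, TMM scaling and Benjamini-Hochberg adjustment within a comparison. Each SE was obtained by dividing the absolute log2 fold change by the square root of F. Log2 CPM were computed from the counts with a prior count of 1. Nothing in the labels gives separate cages or batches, so p-values measure the spread between these glands.

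Relations within diets used 100000 permutations within diet, two-sided, adjusted over 24 relations. The miR-150 relations were restricted to 14 lanes after the lanes had been seen to form 2 clusters. DESeq2 (1.42.0), limma (3.58.1), other scalings and filters, and fits without each lane were alternatives. The fit and the permutation test were tested on simulated data. The members and the lists of miRNAs were chosen with earlier results of these data known. Named miRNAs were the members, the other arm and seed partners, the 3 most alike probes per member, and the list members past the threshold or, where none passed, leading by p. The probes ranked beside the members were named after their values were seen. By the numbers of the lane files, same-numbered lanes of different diets did not deviate together (median r = 0.01 over 31 pairs, 12 of them over 0.1). With the SDG numbers of the log2 table the median r was 0.09, with 15 pairs over 0.1, beside 0.01 for the other pairs. Replicate numbers were not treated as pairs, and a block on either numbering called 0 probes.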

Additional observations from a re-analysis of the deposited data

Results flagged for a closer look

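Of 35 groups of 4 to 6 lanes checked for a lane far from the rest, 5 held one, by a limit that chance passes in about 1 in 20 groups. Groups were checked with and without the miR-720 lanes and so share lanes, and every flag fell on flaxseed 3 or basal 3. The 5 flags can therefore not be set against that rate. Flaxseed 3, with 53.7% of its counts in miR-720, was the lowest of 6 flaxseed lanes for miR-338-3p (9.19 log2 CPM) and for miR-204 (6.69), and the highest for miR-872 (8.86). Basal 3 was the highest basal lane for miR-204 (9.97), both among all 5 lanes and among the 4 without basal 1. The fits without these lanes are given with the results of each miRNA.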

How the results depend on the processing

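Of 342 member fold changes under other tests, scalings, filters or sets of lanes, 327 moved by less than the spread between lanes of a diet, as did all 396 from fits without 1 lane. Values near 0 changed sign among these: that of miR-872 for oil over basal kept its sign in 29 of 41 alternatives, and for flaxseed over SDG in 34 of 41. The spread was taken over 22 lanes, miR-720 lanes included, and is wide: 0.79 for miR-338-3p in flaxseed over basal. A change such as that of miR-872 for flaxseed over basal, from 0.63 to 0.21 without the miR-720 lanes, therefore counted as within it. The exceptions, on the log2 scale, were as follows. With housekeeping scaling miR-204 had 0.025 for SDG over basal (opposite in sign), and miR-872 had 2.44 for flaxseed over basal, 2.28 for flaxseed over oil and 1.61 for flaxseed over SDG. With positive controls miR-338-3p had -0.11 for oil over SDG. There miR-204 had -0.95 for SDG over basal and 0.32 for oil over SDG, and miR-872 had -0.065 for SDG over basal, 0.23 for flaxseed over oil and 0.23 for oil over SDG. The oil over SDG values of miR-204 and miR-872 and the SDG over basal value of miR-872 were thus opposite in sign. With the total count miR-872 had 0.32 for flaxseed over oil. The deposited log2 table gave miR-872 1.36 for flaxseed over basal, 0.80 for oil over basal (opposite in sign), 1.20 for SDG over basal and -0.40 for oil over SDG. The cause of these was not tested, beyond the shift of all probes under these scalings: the median of all probes for oil over SDG was 0.79 with positive controls. The housekeeping values for flaxseed include flaxseed 3, with a housekeeping mean of 135 counts against 1493 to 4407 in the other flaxseed lanes.

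The count of called probes was 0 in each comparison of 22 lanes with TMM. For flaxseed over basal it was 67 with housekeeping scaling, where flaxseed 3 had the low housekeeping mean given above. For oil over basal it was 6 with DESeq2, and 1 without the miR-720 lanes, with the filter recomputed or the 254 probes kept, and 1 with no filter. For flaxseed over oil it was 30 with DESeq2, 31 without the miR-720 lanes, 18 there with the 254 probes kept, 5 with positive controls, 6 with the stricter filter (220 probes) and 5 with the lymphocyte covariate in 19 lanes. For oil over SDG it was 1 without the miR-720 lanes with the 254 probes kept, 17 with positive controls and 8 with the covariate in 19 lanes. Fits without 1 lane gave 0 to 9 calls for flaxseed over oil: 9 without basal 1, 7 without flaxseed 6, 7 without oil 6, 2 without flaxseed 3 and 1 without oil 2.

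The replicate number as a block, which does not pair the mice, called 0 probes. It gave miR-338-3p -1.01 for oil over basal and 1.22 for flaxseed over oil, and miR-204 -0.99 and 0.62. The covariate fits and the block with the SDG numbers of the log2 table were chosen after seeing the data.

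Scaling by positive controls, which leaves differences in RNA amount between lanes in the values, raised the relations within diets. The r was 0.65 for miR-204 with miR-338-3p, 0.57 for miR-872 with miR-338-3p and 0.86 for miR-872 with miR-204. On this scale these pairs passed the threshold by r (adjusted permutation p of 0.00773, 0.0316 and 0.00096). By rho the adjusted permutation p were 0.0192, 0.0787 and 0.0012. With the endogenous total r was 0.51 (opposite in sign), 0.64 and 0.83 (opposite) for miR-338-3p, miR-204 and miR-872, with miR-150 0.64, 0.64 (opposite) and 0.83, with miR-126-3p 0.77, 0.71 and 0.80 (opposite), and with miR-378 0.65, 0.76 and 0.83. With miR-200c r was 0.68 for miR-204 and 0.70 for miR-872. Without the 2 farthest lanes the r of miR-204 with miR-150 was -0.92 (adjusted permutation p = 0.0122), over 12 lanes with SDG 3 as the only SDG lane. Depth limits miR-872, miR-338-5p and miR-211 most, whose counts lie nearest the background thresholds.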
